A study of Mus musculus with 6 samples.

Results

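Neurotrophins are secreted growth factors that keep sensory neurons alive and guide their endings, and in skin they are made by keratinocytes and other cells next to the nerve endings. Brain-derived neurotrophic factor (Bdnf) and neurotrophin 4/5 (Ntf5) bind the receptor kinase TrkB (Ntrk2), neurotrophin 3 (Ntf3) binds TrkC (Ntrk3), and all of them bind the p75 receptor (Ngfr). Their uncleaved precursors bind p75 together with sortilin (Sort1), a receptor that also sorts neurotrophins inside the cell. These 7 genes, 3 ligands and 4 receptors, were chosen by name as members of the family, out of 18217 genes named on the array. They were read by 14 of its 41174 probes.

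The epidermis came from mice of mixed strain at postnatal day 0. The 3 AhRCA mice carried a constitutively active aryl hydrocarbon receptor (AhR, a transcription factor activated by dioxins and other foreign chemicals) driven by the keratin 14 promoter, which is active in basal keratinocytes. The 3 wild-type (WT) mice were littermates, 1 for each AhRCA mouse, and every sample had its own 1-colour Agilent array. The comparison asks which transcripts differ when AhR is permanently active in the keratinocyte layer. Levels are normalized log2 intensities, on which 0 is the 75th percentile of an array and 1 unit is a doubling.

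The arrays had between 56.2% and 61.3% of spots well above background, and a probe is called detected on an array where it met that mark. Replicates 1 and 2 of both genotypes shared slide 1 and replicate 3 of both lay on slide 2. Xist, which coats the inactive X chromosome, lay between 4.43 and 4.66 on slide 1 and at -4.20 and -7.14 on slide 2, so that slide, sex and litter pair 3 coincided while each genotype was equally represented. Known AhR targets marked the genotypes on every array, with log2 fold changes of 7.07 for Cyp1a1, 5.34 for Cyp1b1 and 5.91 for Ahrr. Artn, the neurotrophic factor artemin of the GDNF family, had 2.75. With normexp background correction these 4 values were 6.24, 4.87, 4.30 and 2.07. That setting adds an offset of 50 to every intensity. The offset alone lowers log2 fold changes, most of all for dim probes, here and in the normexp values below. The tissue label was met by its markers: all 9 keratinocyte genes on the array were tested and 0 passed (limma; 0 also at an unadjusted p under 0.05), with a summed level between 1548 and 1689 times the array's 75th percentile in WT and between 1467 and 1766 in AhRCA.

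In the main setting transcripts of 2 neurotrophins rose in AhRCA epidermis, Bdnf by 3.02-fold and Ntf3 by 1.96-fold. Of 17 alternative settings with a test, 15 lost the Ntf3 call and 4 the Bdnf call. The ligand Ntf5 and the receptors Ngfr and Sort1 did not pass the test, and the Trk receptors Ntrk2 and Ntrk3 were too dim to be tested. The count is therefore 2 of 5 tested members higher and 0 lower, where 2.18% of the 12824 genes tested passed in either direction, 0.53% of them higher and 1.65% lower (limma, Benjamini-Hochberg adjusted p under 0.05). Blocking on litter pair, 1 of the 5 passed, Bdnf, where 3.88% of all genes did. The median log2 fold change was -0.04 over the 5 members and 0.00129 over all genes. In whole epidermis a change in RNA per cell and a change in the number of cells that make it cannot be told apart.

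**Figure D1:**
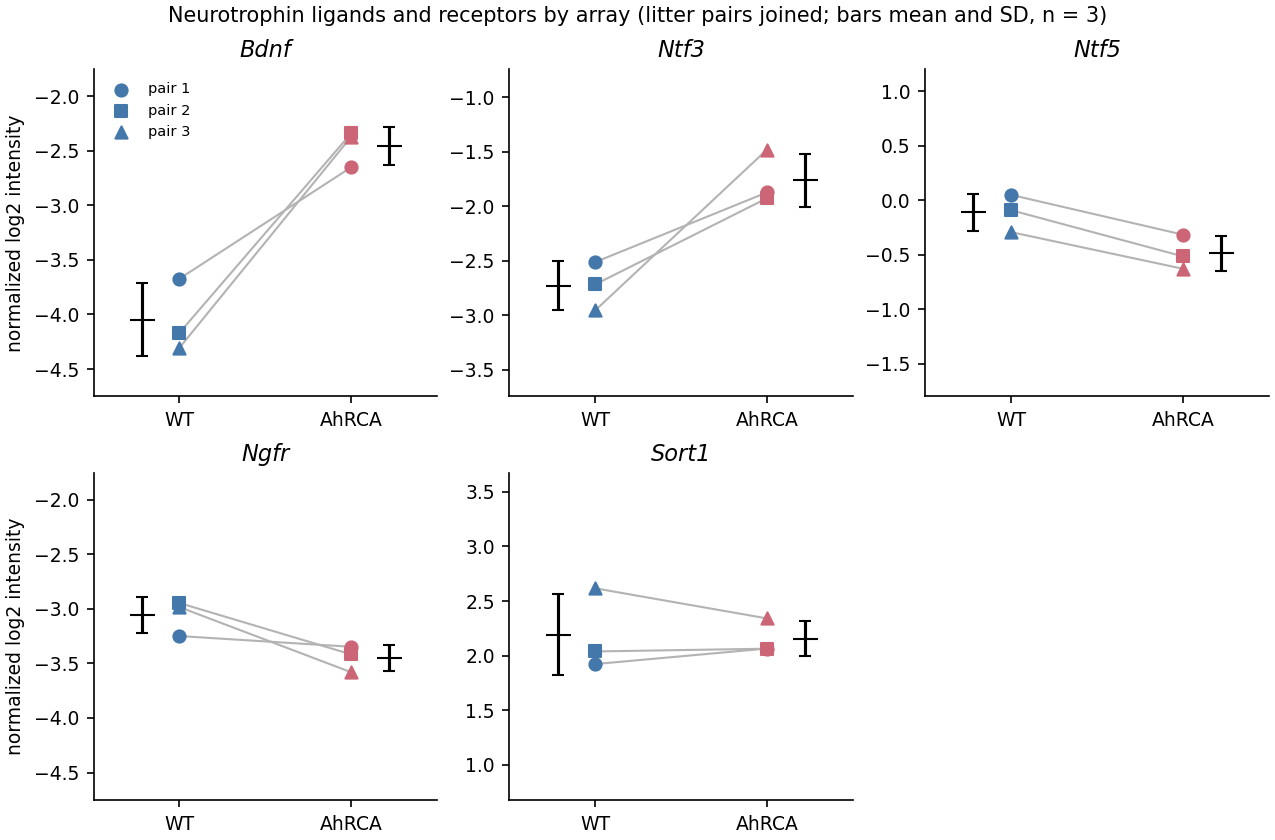
Normalized log2 intensity of the 5 tested genes in WT and AhRCA epidermis, 1 panel per gene, each spanning 3 log2 units; grey lines join littermates and black bars give the mean and SD of 3 arrays. Bdnf and Ntf3 stand higher on all 3 AhRCA arrays than on any WT array, Ntf5 and Ngfr stand lower, and the Sort1 arrays overlap.

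Bdnf supports sensory neurons, among them touch receptors of the skin, and its gene has several promoters, each with its own first exon. Its brighter probe was printed in 10 spots per array. The mean processed intensity of these spots, before scaling, was 57.3, 38.2 and 36.2 in WT 1 to 3 and 109, 124 and 146 in AhRCA 1 to 3. The normalized log2 levels were -3.67, -4.17 and -4.31 in WT and -2.65, -2.34 and -2.37 in AhRCA. All AhRCA arrays were above all WT arrays, an order found in 7.52% of the genes tested. The mean rose from -4.05 ± 0.33 (SD, n = 3) to -2.45 ± 0.17, a log2 fold change of 1.60 ± 0.19 (SE) with an adjusted p of 0.0139 (limma), and ranked 31st among the rises of all genes. Within pairs the difference was 1.02, 1.83 and 1.94, so the smallest rise was in pair 1, whose WT mouse had the highest level.

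The SD over the kept spots of the brighter Bdnf probe, a technical spread within one array, was between 0.08 and 0.31 log2 units. The dimmer Bdnf probe, printed once, had -4.85, -6.12 and -6.90 in WT and -3.95, -4.01 and -3.60 in AhRCA. This probe was detected on 1 WT array and on all 3 AhRCA arrays, and its log2 difference of 2.10 ± 0.49 (SE) did not pass among single probes (adjusted p = 0.136, limma), of which 1.1% passed. Both probes were thus higher in each of the 3 pairs. With normexp the log2 fold change of Bdnf was 0.84 (adjusted p = 0.0145, limma). The offset of 50 in that setting was close to the WT intensities of the brighter probe and by itself lowers the value. The part of the background correction in the smaller value was not tested.

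**Figure D2:**
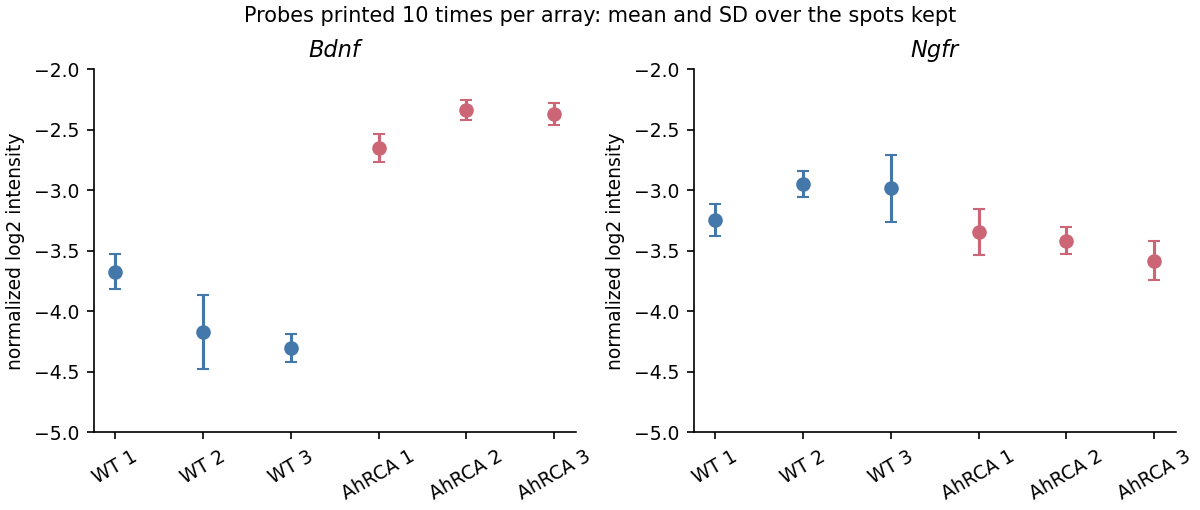
Normalized log2 intensity of the Bdnf and Ngfr probes that were printed 10 times, by array; points are means and bars the SD over the spots kept on that array. The AhRCA arrays of Bdnf lie between -2.65 and -2.34 and its WT arrays between -4.31 and -3.67, and the Ngfr arrays of the genotypes lie much closer, between -3.58 and -2.95.

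The promoters of Bdnf and Ntf3 are shown because these transcripts rose while AhR was active. AhR and its partner ARNT bind DNA at the core GCGTG, and CREB, a regulator of Bdnf in neurons, binds the half-site TGACG. RefSeq (GRCm38.p6) gave windows of 300 bases, 250 before and 50 after a transcript start, for 4 of the 7 members. Bdnf had 7 windows, of which 2 held GCGTG on either strand and 1 held TGACG. Of all 32851 mouse windows 32.4% held GCGTG and 20.8% held TGACG, so matches of this length are common. The Bdnf windows are numbered along the gene, and the 250 bases before the start are printed for the pair that held a motif, 5′ to 3′ on the gene's strand, with every match to either motif on either strand, and to TNGCGTG, in capitals.
Bdnf window 3, chr2:109692186-109692435, + strand: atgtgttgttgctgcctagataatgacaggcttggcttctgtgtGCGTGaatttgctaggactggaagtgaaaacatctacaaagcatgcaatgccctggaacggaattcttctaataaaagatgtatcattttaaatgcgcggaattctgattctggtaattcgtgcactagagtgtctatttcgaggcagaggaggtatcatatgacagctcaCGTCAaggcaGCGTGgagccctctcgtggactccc
Bdnf window 5, chr2:109694159-109694408, + strand: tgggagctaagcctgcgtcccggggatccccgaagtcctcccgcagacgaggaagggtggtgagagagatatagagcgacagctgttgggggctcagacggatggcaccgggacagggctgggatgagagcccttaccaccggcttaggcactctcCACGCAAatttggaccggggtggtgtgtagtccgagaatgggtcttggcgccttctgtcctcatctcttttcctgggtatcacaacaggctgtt

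In window 3 the GCGTG matches began at -206 and -25 from the start and the TGACG match, on the opposite strand, at -35. In window 5 the single GCGTG match, on the opposite strand, began at -94 and belonged to the longer form TNGCGTG, which 5.07% of all windows held. Ntf3 had 2 windows, of which 1 held GCGTG, on the opposite strand and across the transcript start. The 40 bases around it, with the match in capitals, were as follows.
Ntf3 window 2, chr6:126166743-126166782, - strand: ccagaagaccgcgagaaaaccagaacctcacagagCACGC

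Single windows of Ngfr, which did not pass the test, and of Ntrk2, which was not tested, also held GCGTG, with 1 and 3 matches. Which Bdnf promoter was in use was not analysed here, and a match of letters is no measure of binding.

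Ntf3 supports touch and muscle sensory neurons through TrkC. Its 1 probe stood at -2.51, -2.72 and -2.95 in WT and at -1.87, -1.92 and -1.48 in AhRCA. All AhRCA arrays were above all WT arrays, as in 7.52% of the genes tested, and the AhRCA array of slide 2 was the highest of all. The mean rose from -2.73 ± 0.22 (SD, n = 3) to -1.76 ± 0.24, a log2 fold change of 0.97 ± 0.17 (SE) with an adjusted p of 0.0480 (limma). The rise was seen in 3 of 3 pairs, with 0.64, 0.79 and 1.47, but its call was at the edge of the threshold. Blocking on litter pair gave an adjusted p of 0.0770 and blocking on slide one of 0.0517, and slide 1 alone gave 0.0841. Leaving out any 1 array gave between 0.0695 and 0.175, so the Ntf3 call was lost in each of these fits. With normexp background correction the log2 fold change of Ntf3 was 0.63 (adjusted p = 0.0662, limma). The genotype effect on slide 2 exceeded that on slide 1 by 0.76 log2 units, a difference that did not pass (adjusted p = 0.492, limma interaction, unadjusted p = 0.0135).

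Blocking on litter pair left Bdnf past the threshold (adjusted p = 0.0325), as did blocking on slide (0.0192). On slide 1 alone its log2 fold change was 1.43 (adjusted p = 0.0880), and the call was also lost when the array of WT 2 (0.0673), AhRCA 2 (0.0746) or AhRCA 3 (0.0559) was left out. On slide 2, with 1 pair and no test, the difference was 1.94 for Bdnf and 1.47 for Ntf3.

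**Figure D3:**
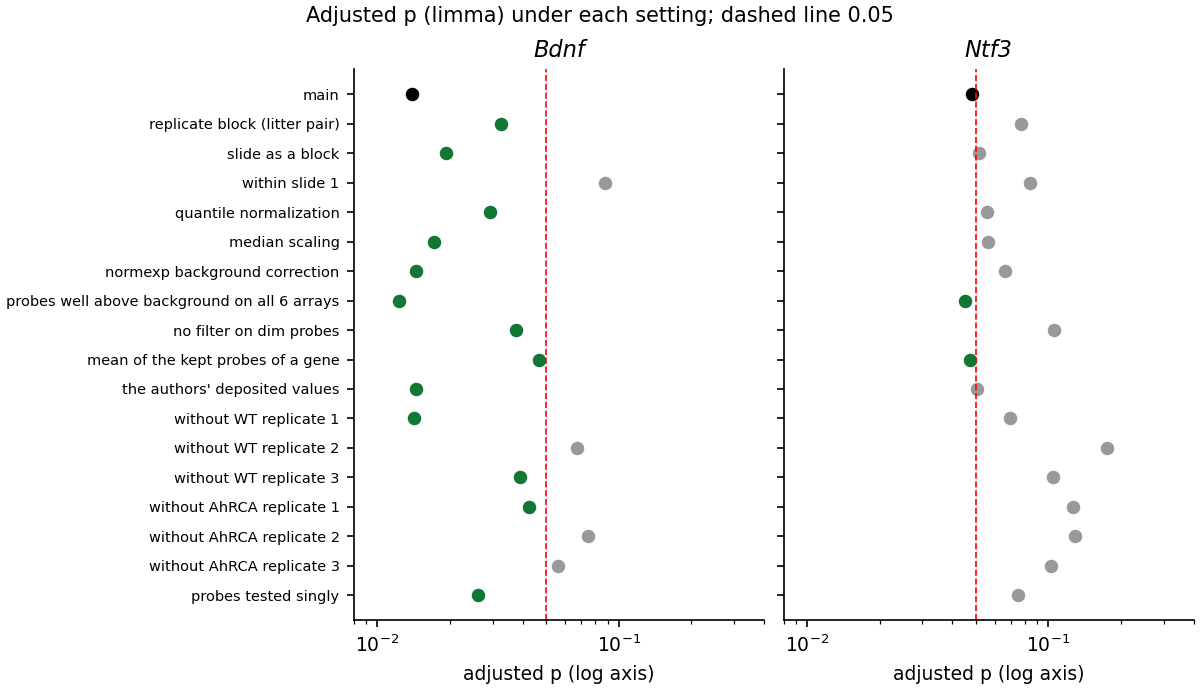
Adjusted p (limma, log axis) of Bdnf and Ntf3 in AhRCA against WT under the main setting (black) and each alternative; green points are under 0.05, grey points above it, and the dashed line marks 0.05. Bdnf lies between 0.0123 and 0.0880 and Ntf3 between 0.0452 and 0.175.

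Ntf5, which like Bdnf acts through TrkB, had values on the opposite side of 0. Its probe stood at 0.05, -0.09 and -0.29 in WT and at -0.32, -0.52 and -0.63 in AhRCA. All AhRCA arrays were lower than all WT arrays, by a narrow margin, an order found in 8.84% of the genes tested. The mean was -0.11 ± 0.17 (SD, n = 3) in WT and -0.49 ± 0.16 in AhRCA, a log2 difference of -0.37 ± 0.14 (SE) that did not pass (adjusted p = 0.334, limma; unadjusted 95% interval -0.71 to -0.04). The pairs differed by -0.36, -0.42 and -0.34. Blocking on litter pair gave Ntf5 an adjusted p of 0.0962.

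Ntrk2 encodes TrkB, the kinase receptor of Bdnf and Ntf5, and both of its probes were printed in 10 spots. Both were detected on 0 of 6 arrays, so no level of this receptor can be given for newborn epidermis of either genotype. Ntrk3 encodes TrkC, the receptor of Ntf3. Its first probe was detected on 2 of 3 WT arrays, with -4.57, -4.69 and -5.61, and on 0 AhRCA arrays, with -6.12, -6.29 and -6.62. No size of difference can be given from these readings. The second Ntrk3 probe was detected on 0 of 6 arrays.

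Ngfr encodes p75, the receptor shared by all neurotrophins. Its 10-spot probe stood at -3.25, -2.95 and -2.98 in WT and at -3.35, -3.42 and -3.58 in AhRCA. The AhRCA arrays were all lower, an order found in 8.84% of the genes tested, but WT 1 and AhRCA 1 lay only 0.10 log2 units apart. The log2 difference of -0.39 ± 0.13 (SE) did not pass (adjusted p = 0.265, limma; unadjusted 95% interval -0.70 to -0.08). The second Ngfr probe had -0.26 ± 0.41 (adjusted p = 0.998 among single probes) and was detected on all 3 WT arrays but on 1 AhRCA array.

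Sort1, sortilin, was read by 4 probes, all well above background on all 6 arrays. The brightest stood at 1.92, 2.04 and 2.62 in WT and at 2.06, 2.06 and 2.34 in AhRCA, where the groups overlapped. Its log2 difference was -0.04 ± 0.20 (SE; adjusted p = 0.999, limma; unadjusted 95% interval -0.52 to 0.45), and those of the other three were 0.02, 0.07 and 0.04.

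**Figure D4:**
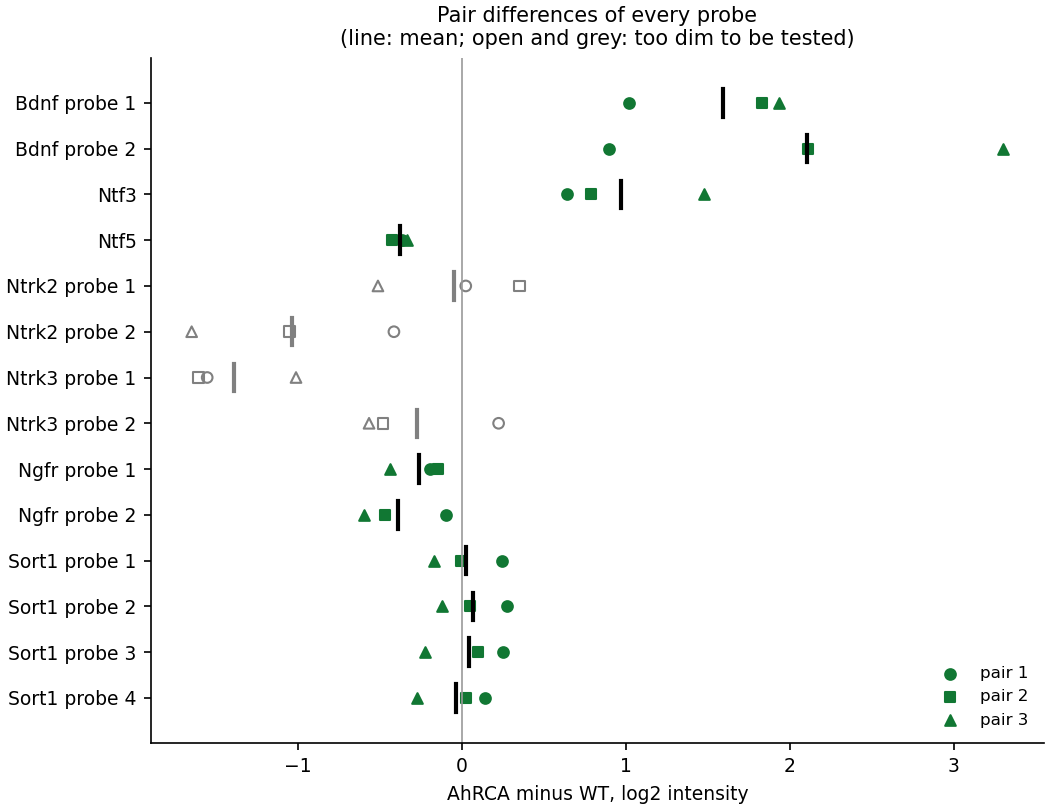
AhRCA minus WT within each litter pair (circle, square and triangle for pairs 1 to 3) for every probe of the 7 genes, in log2 units; vertical ticks are means over pairs, and open grey symbols are probes too dim to be tested. Both Bdnf probes and Ntf3 lie to the right of 0 in all pairs, Ntf5 and both Ngfr probes to the left, and the 4 Sort1 probes on both sides.

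The genes that process, bind or relay neurotrophins were examined by role, and most of them did not pass. Of 92 listed genes in 6 groups 76 were tested, and 2 fell and 0 rose, which is 2.63% against 2.18% of all genes. Their median log2 fold change was 0.000319, beside 0.00129 for all genes tested. Blocking on litter pair, 3 of these genes passed, and 497 genes in all. For the counts at an unadjusted p under 0.05 given with each group, the share over all genes tested was 12.2%.

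The 2 that fell were Sorcs2 and Timp1. Sorcs2 encodes a relative of sortilin that binds p75 and proneurotrophins, and was the 1 of 3 sortilin relatives on the array that could be tested; Sorcs1 and Sorcs3 were detected on 0 of 6 arrays. Sorcs2 stood at -1.66, -2.42 and -2.23 in WT and at -3.60, -3.82 and -4.10 in AhRCA. All AhRCA arrays lay more than 1 log2 unit below all WT arrays. By any margin, 8.84% of the genes tested had all AhRCA arrays lower. The log2 fold change of Sorcs2 was -1.74 ± 0.23 (SE, adjusted p = 0.0182, limma). The call was lost without AhRCA replicate 2 (0.0861), without AhRCA replicate 3 (0.0633) and on slide 1 alone (0.0968), and with normexp the value was -1.01.

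Timp1, an inhibitor of matrix metalloproteases, some of which cleave proneurotrophins, stood at -1.54, -1.96 and -2.001 in WT and at -2.81, -2.65 and -2.73 in AhRCA. All AhRCA arrays were lower, as in 8.84% of the genes tested, and the log2 fold change was -0.90 ± 0.15 (SE), with an adjusted p of 0.0402 (limma). Timp1 lost its call in 13 of the 17 alternatives with a test, among them blocking on litter pair (0.0548), quantile normalization (0.0599) and leaving out any 1 array (between 0.0579 and 0.148). Of the 10 tested genes of precursor cleavage it was the only one to pass (5 at an unadjusted p under 0.05), and their median was -0.37. Blocking on litter pair, Plau of the same group, which encodes the urokinase plasminogen activator and was chosen after its values were seen, rose with an adjusted p of 0.0328. Its log2 difference was 0.73 ± 0.14 (SE, adjusted p = 0.0653 without the block).

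Of 15 tested p75 partners and effectors 0 passed (limma; 3 at an unadjusted p under 0.05). The largest differences were those of Lingo1, a coreceptor of p75 in neurons, with -0.93 ± 0.24 (SE, adjusted p = 0.129; 0.0467 blocking on litter pair), and Bex1, an intracellular p75 binding protein, with -0.49 ± 0.16 (adjusted p = 0.263). Lingo1 was dim, detected on 3 WT arrays and 2 AhRCA arrays, and with normexp its value was -0.28 (adjusted p = 0.446, limma). Of 33 tested Trk adaptors and kinases, the relay from an active receptor to the MAP kinase and PI3 kinase pathways, 0 passed (limma; 2 at an unadjusted p under 0.05) and the median was -0.00607. The largest values were 0.33 ± 0.10 for Pik3r1, a regulatory subunit of PI3 kinase, and 0.29 ± 0.15 for the adaptor gene Crkl.

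Of 9 tested regulators of Bdnf transcription 0 passed (limma; 4 at an unadjusted p under 0.05), 8 had positive values, as had 50.4% of all genes tested, and the median was 0.14. Mef2a, a transcription factor of the MEF2 family, had 0.81 ± 0.16 (SE, adjusted p = 0.0603, between 0.0305 and 0.217 over the alternatives), with a WT mean of -1.65 ± 0.28 (SD, n = 3) and an AhRCA mean of -0.83 ± 0.03. Rest, a repressor of neuronal genes, had 0.37 ± 0.15 (adjusted p = 0.388). Of 8 tested genes that respond to neurotrophins in neurons 0 passed (limma), and 1 had an unadjusted p under 0.05. Among these 8 genes 7 had positive values, and the median was 0.22. Ier2 had 0.42 ± 0.25 and Egr2, an immediate early transcription factor, -0.37 ± 0.14 (adjusted p = 0.696 and 0.318).

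**Figure D5:**
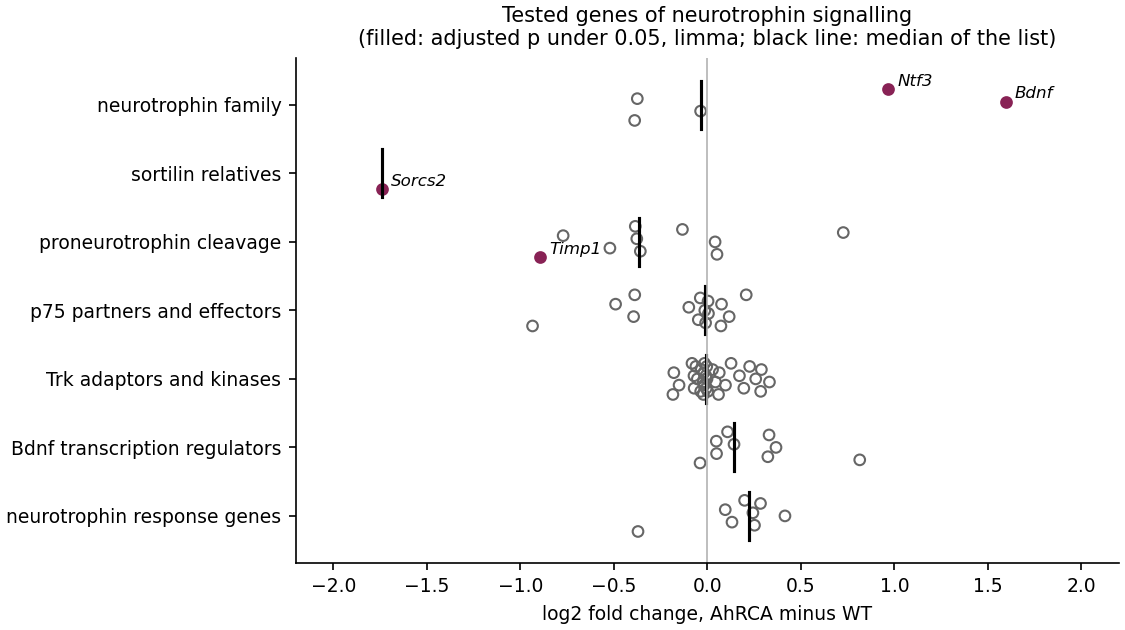
Log2 fold change, AhRCA minus WT, of each tested gene in the neurotrophin family and in 6 groups of related genes (rows); filled points passed at an adjusted p under 0.05 (limma), open points did not, black lines are medians and the height of a point within a row has no meaning. Bdnf and Ntf3 are the filled points to the right of 0, and Sorcs2 and Timp1 those to the left.

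Over the 6 arrays, the genes whose levels followed a member most closely were found by Pearson's r across 12821 genes. They were Slc17a5, Zfp644 and Cish for Bdnf (r = 0.996, 0.995 and 0.994) and Sltm, Rock1 and Bmp3 for Ntf3 (0.992, 0.990 and 0.989). For Ntf5 they were Klhl23, Col27a1 and B4galnt4, for Ngfr Ctif, Sccpdh and Krt9, and for Sort1 Cep170b, Olfr398 and Pyroxd1, with r between 0.989 and 0.997. None of these 15 genes passed the test of genotype (limma, smallest adjusted p 0.0880, Bmp3), and blocking on litter pair 1 of them fell, Col27a1 (log2 fold change -0.75, adjusted p = 0.0273). All values share the same 6 arrays and their scaling, and with so many genes a high r over 6 points is common.

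Cells that make or receive neurotrophins were followed by their markers. For the counts of markers, the shares over all genes tested were 0.53% higher, 1.65% lower and 12.2% at an unadjusted p under 0.05 (limma). Merkel cells are touch cells of the epidermis that are contacted by sensory nerve endings. Of their 5 tested markers 3 fell, and 4 had an unadjusted p under 0.05. Krt20 had a log2 fold change of -2.61 ± 0.26 (SE) and Krt8 one of -2.08 ± 0.23 (adjusted p = 0.00820 and 0.0108, limma), while Piezo2, a touch-sensing ion channel gene, had an adjusted p of 0.0474 from a probe detected on 0 of 3 AhRCA arrays. With normexp the values of Krt20, Krt8 and Piezo2 were -1.44, -1.60 and -0.45. Krt8 lost its call in 2 of 17 alternatives with a test and Piezo2 in 13 of 16, blocking on litter pair among them (0.0672). The summed level of the list was between 15.8 and 23.4 in WT and between 15.3 and 15.9 in AhRCA, in units of the array's 75th percentile. Chga, a granule protein of neuroendocrine cells, held most of it, with 13.6 to 21.6 in WT and 14.8 to 15.4 in AhRCA, and the other 4 tested markers summed to between 1.38 and 2.19 in WT and between 0.408 and 0.618 in AhRCA. Of the list's genes, 2 of 8, Atoh1 and Sox2, were detected on 0 of 6 arrays.

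Schwann cells carry p75, and of 7 tested Schwann and nerve markers 0 passed (limma; 0 at an unadjusted p under 0.05), with a summed level of 7.59 to 8.76 in WT and 7.97 to 8.06 in AhRCA. The neuronal markers Prph, Nefl and Uchl1 were detected on 0 of 6 arrays. Tubb3 of the same list was detected on all 3 arrays of each genotype. It had the largest difference of the list, -0.42 ± 0.18 (SE, adjusted p = 0.435, limma). All its AhRCA arrays were lower, as in 8.84% of the genes tested. Of 7 Langerhans cell markers 4 had an unadjusted p under 0.05 (limma). Adgre1 rose (0.67 ± 0.10, SE, adjusted p = 0.0321, limma) and Cd207 fell (adjusted p = 0.0206), to a level not detected on the 3 AhRCA arrays. The rest of these 4 did not pass, and each had all AhRCA arrays below all WT arrays, as in 8.84% of the genes tested. Among the 7 markers 3 had positive values. The bound on the Cd207 change was at least 3.09-fold from processed intensities. With normexp its log2 fold change was -0.76, a value that the offset of 50 lowers for so dim a probe, so it does not bear on the bound. The Langerhans list summed to 9.55 to 12.03 in WT and 8.31 to 9.76 in AhRCA. Of 9 hair follicle markers Lgr5 fell (-0.83 ± 0.11, SE, adjusted p = 0.0199, limma), and 2 had an unadjusted p under 0.05. The hair follicle list summed to 322 to 397 in WT and 281 to 344 in AhRCA. Of the markers of T cells (4 tested), melanocytes (4), fibroblasts and mural cells (7), mast cells (1) and skeletal muscle (2), 0 passed (limma; 2, 0, 1, 0 and 0 at an unadjusted p under 0.05), and 5 of 5 endothelial markers were detected on 0 of 6 arrays. The T cell list summed to 1.42 to 2.67 in WT and to 1.25 to 1.34 in AhRCA. Of the calls among these markers, that of Adgre1 was lost in 10 of 17 alternatives with a test, that of Lgr5 in 8 of 17 and that of Cd207 in 5 of 16. The part of any of these cell types in the neurotrophin values was not tested.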

How the data were processed

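The deposited scanner files hold the intensity of each spot, read with Agilent's Feature Extraction (version 10.7.3.1), per the file headers, with background subtracted and spatial trends fitted within each array by the authors and no scaling between arrays. The authors' deposited table holds log2 values that differ between arrays as the log2 intensities do (slope 1) and are centred on each probe's median; it served as an alternative.

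Control spots and between 56 and 94 outlier spots per array were left out, log2 intensities were scaled to the 75th percentile, and replicate spots were averaged. Probes were named by RefSeq accession (GRCm38.p6): 26690 of 41174 had 1 symbol, 0 several and 14484 none. Probes were kept (24005) if well above background on 3 or more of 6 arrays, for a probe of 10 spots by more than 0.5 of them, and the brightest probe stood for its gene, which gave 12824 genes, 3 with a missing value. limma 3.58.1 (R 4.3.3; two-sided, Benjamini-Hochberg over all genes, threshold 0.05, no block) was tested on simulated data first. The number of arrays, 3 per genotype, limits the precision.

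Alternatives were the litter pair or the slide as a block, single slides, quantile and median scaling, normexp background correction (offset 50, on median signals, as the files hold no mean signal), other filters and probe summaries, the deposited table and leaving out each array. The interaction with slide, and the alternatives for genes outside the family, among them the litter-pair block for the correlated genes, were added after the data were seen. Same-numbered arrays are littermates by the design, and the numbers were taken to pair the samples. On slide 1 the deviations of same-numbered arrays from their group means correlated at 0.337 and 0.372, and those of other pairs at 0.150 and 0.194. Pair 3, alone on slide 2, had 0.55, and pairs across slides lay between -0.416 and -0.356. Slide, sex and litter cannot be told apart in these last values.

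The members and lists were chosen with earlier results of these data known. Named genes are all members, the AhR targets, up to 4 passing genes of each related group or else the 2 of largest change, passing marker genes, and the 3 genes most correlated with each member. Tubb3 was named after its values were seen. Some results of the same fits are not reported here, and protein sequences were not used here.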

Additional observations from a re-analysis of the deposited data

Results flagged for a closer look

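For Sort1, the pairs of slide 1 and the pair of slide 2 differed in opposite directions. AhRCA minus WT of its brightest probe was 0.14 and 0.03 log2 units in pairs 1 and 2 and -0.28 in pair 3. The effect on slide 2 was lower than that on slide 1 by 0.36 (difference -0.36), which did not pass as an interaction of genotype and slide (limma, unadjusted p = 0.0715, adjusted p = 0.519). Pair 3 was also below 0 in the other three Sort1 probes, with -0.17, -0.12 and -0.22, where pair 1 had 0.25, 0.28 and 0.25 and pair 2 had -0.00664, 0.05 and 0.10.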

How the results depend on the processing

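Of the 2 members that passed, Bdnf alone passed when litter pair or slide was a block, under quantile normalization, median scaling and normexp, without the filter on dim probes, with the deposited values and with probes tested singly (1 member each), and 0 passed on slide 1 alone. Leaving out 1 array gave between 0 and 1 members. Over all genes, 279 passed in the main setting, 497 with the litter pair as a block, 539 with the slide as a block, 130 on slide 1 alone and 132 without the filter on dim probes, and between 62 and 195 when 1 array was left out. Of the 76 related genes, 2 passed in the main setting, 3 with the litter pair as a block, 4 with the slide as a block, 0 on slide 1 alone and 1 under quantile normalization, median scaling or no filter, and leaving out 1 array gave between 0 and 2. Those with the litter pair as a block were Lingo1, Plau and Sorcs2, and with the slide as a block also Timp1. With the longer motif TNGCGTG in place of GCGTG, 1 of 11 promoter windows of the members matched instead of 5. The log2 fold changes of Bdnf, Ntf3, Ntf5 and Ngfr kept their signs under all 18 alternatives, 17 of them with a test; that of Sort1 lay between -0.28 and 0.18. Beyond Ntf3, Timp1, Lingo1, Plau, Piezo2 and Col27a1, the litter pair as a block changed no call of the members, the other genes named from the related and marker lists, the AhR targets named or the 15 genes most correlated with a member. The cause of these changes was not tested.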
